A study of Mus musculus with 10 samples.

Results

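Otx2, Pou3f1, Foxd3, Zic2 and Fgf5, regulators and markers of formative pluripotency, and Nes, Pax6, Hes1, Pou3f2 and Neurog2, regulators and markers of neural progenitors, were examined for nearby binding of SOX2 and SOX15. The 10 genes were chosen by name, 5 formative and 5 neural, of 21631 protein-coding genes in all, on the 20 chromosomes where any library had a peak. A peak counted for a gene when its summit lay within 50 kb of the gene body. The data were ChIP-seq peak lists from mouse embryonic stem cells (ESCs) that carried an HA tag knocked in at Sox2 or at Sox15. All cells grew in 2i/LIF, a culture medium for naive pluripotency, and were fixed for 5 min in 1% formaldehyde. The lists came from 2 SOX2-HA libraries and 3 SOX15-HA libraries, while the 2 SOX2 and 3 SOX15 input libraries were not analysed here. The strain, the number of clones per line and whether replicates were separate cultures are not given in the sources used here, so differences between replicates may be technical.

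SOX2 and SOX15 are HMG-box factors that recognise closely related DNA sequences, and SOX2 often binds next to a POU-domain partner. SOX2 keeps embryonic stem cells pluripotent together with OCT4, and later marks neural progenitors, where it pairs with POU3F factors. Formative cells lie between the naive and the primed state, and OTX2 directs that passage. Peak lists hold no expression, so the levels of these genes and the identity of the cells were not measured. Sites with a peak in both SOX2 libraries were present within 50 kb of 6 of 6 genes of stem cell identity (Pou5f1, Nanog, Sox2, Klf4, Esrrb and Prdm14), against 14.2% of all protein-coding genes. The only such site of Klf4 lay 49.5 kb from the gene, close to the limit.

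Sequence was read for the 3 start-site windows that a peak near the 10 genes touched, since these were the stretches for which both a peak and the bases were at hand. Each window runs from 250 bases before to 50 bases after a transcription start, from RefSeq on GRCm38.p6, whose chromosome coordinates are those of mm10. Capitals mark matches to the SOX cores ACAATG and ACAAAG or to the octamer core ATGCAA, searched on both strands, and the window without capitals holds none.
Otx2, internal start, chr14:48662685-48662984, minus strand: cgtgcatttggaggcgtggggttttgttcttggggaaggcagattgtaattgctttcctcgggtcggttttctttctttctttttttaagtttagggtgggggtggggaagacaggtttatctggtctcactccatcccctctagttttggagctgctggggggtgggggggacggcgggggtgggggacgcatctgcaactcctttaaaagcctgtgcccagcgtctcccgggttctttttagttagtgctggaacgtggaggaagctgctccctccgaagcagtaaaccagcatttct
Gm32796, a long noncoding RNA gene whose start lies under the peak 92.6 kb from Hes1, chr16:29972610-29972909, plus strand: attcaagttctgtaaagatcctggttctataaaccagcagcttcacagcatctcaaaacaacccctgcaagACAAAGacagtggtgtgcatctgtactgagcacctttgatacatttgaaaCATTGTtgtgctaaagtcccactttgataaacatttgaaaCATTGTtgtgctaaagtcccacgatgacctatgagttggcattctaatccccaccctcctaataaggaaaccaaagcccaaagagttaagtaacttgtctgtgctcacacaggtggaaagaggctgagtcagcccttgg
Gm51018, a long noncoding RNA gene whose start lies under the region 87.9 kb from Neurog2, chr3:127544839-127545138, plus strand: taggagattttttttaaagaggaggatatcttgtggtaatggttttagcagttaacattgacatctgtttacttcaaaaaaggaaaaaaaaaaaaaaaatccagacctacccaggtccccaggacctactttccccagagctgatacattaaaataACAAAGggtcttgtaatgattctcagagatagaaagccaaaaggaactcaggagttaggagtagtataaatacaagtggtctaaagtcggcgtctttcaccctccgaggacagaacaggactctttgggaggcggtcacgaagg

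The Otx2 window met the SOX2 replicate 2 peak over 26 bases at its upstream edge, and the summit of that peak lay 374 bp from the start. The Gm32796 window lay in a SOX2 replicate 2 peak over 289 of its 300 bases. It held the core ACAATG in 2 places, as CATTGT on the printed strand, and ACAAAG in 1. The summit was 3 bp from the nearer ACAATG match, 32 bp from the other and 53 bp from ACAAAG. Both ACAATG matches sit in copies of a repeat of 32 bases spaced 40 bp apart. The Gm51018 window was covered whole by the peaks of both SOX2 libraries and over 70 bases by a SOX15 replicate 3 peak. Its ACAAAG match lay 195 and 190 bp from the summits of SOX2 replicates 1 and 2. Of all 32851 windows of the same length, 28.6% held either SOX core, so a match in a window is common.

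At the 10 genes' own starts a single window met a peak. The sequence table held 11 windows for 7 of the 10 genes, without Pou3f1, Zic2 and Hes1. A peak touched 1 of the 11, the internal Otx2 window, in SOX2 replicate 2, which touched 0.392% of 32619 windows. SOX2 replicate 1 had a peak at the same site, from chr14:48662987, just outside that window. A SOX core was found in 2 of the 11 (Fgf5 and the internal Pax6 start). The same 2 windows held the octamer core ATGCAA, which 10.7% of all windows hold and which is also part of the full octamer ATGCAAAT. No window of the 11 held the full octamer, found in 1.74% of all windows. The median GC content of the 11 windows was 58.0% (range 41.7 to 68.3), against 52.7% over all windows, with a median of 16 CpG sites against 7.

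SOX2 regions lay near 4 of the 10 genes: Otx2, Foxd3 and Zic2 of the formative genes, and Nes of the neural genes. A SOX2 region here is a stretch with a peak in both SOX2 libraries. Over all protein-coding genes 14.2% had such a region within 50 kb, against 3 of 5 formative and 1 of 5 neural genes. These genes were proposed with earlier results of the same lists known, so counts over them are descriptions and were not tested against all genes. No SOX15 region (a peak in at least 2 of 3 SOX15 libraries) lay near any of the 10, and 2.26% of all genes had one. Peaks of any SOX2 library lay near 5 of the 10 (26% of all genes) and peaks of any SOX15 library near 2 (8.11% of all genes). Foxd3 and Zic2 had 2 SOX2 regions each, a number that 2.81% of all genes reached, and Otx2 and Nes had 1 each. The gene bodies are short (median 5.61 kb, against 17.3 kb over all genes), and among genes in the same range of lengths 12.1% had a SOX2 region.

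**Figure D1:**
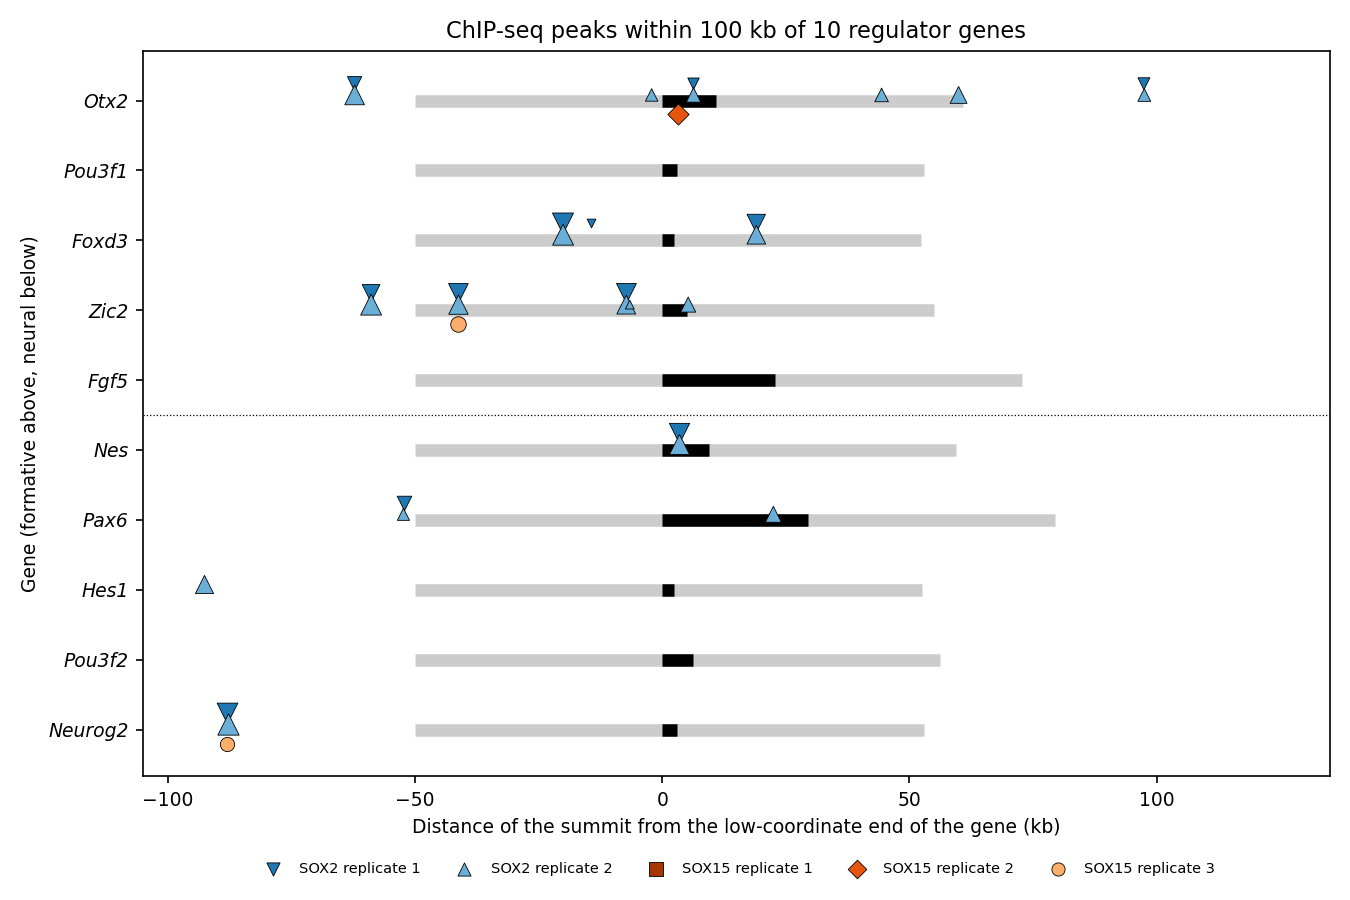
Each row is a gene, drawn as a black bar with its 50 kb flanks in grey, and each symbol is a peak summit at its distance in kb from the low-coordinate end of the gene, larger where its fold ranks higher within its own list. Otx2, Foxd3, Zic2 and Nes have SOX2 symbols of both libraries inside the grey span, while Pou3f1, Fgf5 and Pou3f2 have no symbol within 100 kb.

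Foxd3, a forkhead factor of pluripotent cells and the neural crest (mm10 chr4:99656299-99658671), had the highest-ranked SOX2 region of the set. The region 20.1 kb upstream of its start (chr4:99635851-99636663) had deposited fold enrichments of 24.6 and 23.0 in SOX2 replicates 1 and 2. Fold enrichment is the authors' own value per peak, a linear ratio over background, and is comparable only within a list. Within their lists these peaks ranked at the 96.4 and 95.1 percentiles of fold, so both libraries placed the site near the top. By mean percentile the region was number 123 of 2369 SOX2 regions. The second region, 16.6 kb beyond the gene's end in replicate 1 (chr4:99675119-99675559), had folds of 10.8 and 11.4, at the 70.9 and 73.4 percentiles. SOX2 replicate 1 had a further peak 14.3 kb upstream (chr4:99641908-99642130) with a fold of 4.65, at the 3.03 percentile, which replicate 2 did not call. Foxd3 is the nearest protein-coding gene to each of these peaks, and no other such gene lies within 50 kb of it. No SOX15 library had a peak there, and the nearest SOX15 summit was 2981 kb away.

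Zic2, a zinc-finger factor of the formative epiblast and the early neural plate (mm10 chr14:122475384-122480328), had its SOX2 regions on the side of its neighbour Zic5. The farther region (chr14:122433876-122434328) lay 41.2 kb from Zic2 inside the noncoding gene Gm5089, with folds of 13.6 and 13.0 in SOX2 replicates 1 and 2 (82.8 and 79.8 percentiles). SOX15 replicate 3 had a peak on the same site with a fold of 6.13, at the 45.1 percentile of its list. Its summit was 11 and 3 bp from those of SOX2 replicates 1 and 2, and SOX15 replicates 1 and 2 had no peak there. It was the 1 region of the set's 6 with a SOX15 peak on it. The nearer region (chr14:122467882-122468314) lay 7.25 kb from Zic2 in replicate 1 and 2.48 kb from Zic5, with folds of 14.1 and 11.6 (84.3 and 74.6 percentiles). SOX2 replicate 2 alone had a peak 0.299 kb past the high-coordinate end of Zic2 (fold 7.60, 41.6 percentile) and a weak one 6.57 kb before the gene (fold 4.51, 3.26 percentile). Both regions are nearer to Zic5 than to Zic2. When a region was given to the nearest coding gene alone, Zic2 had none, and 3 of the 10 genes kept a region against 7.31% of all genes.

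Otx2, the homeobox gene of the formative transition (mm10 chr14:48656781-48667644), had 4 SOX2 replicate 2 peaks within 50 kb, as many as Zic2, and their ranks depended on the value used for ranking. The region called in both libraries lay inside the gene, 4.54 kb downstream of its outermost start (chr14:48662959-48663254). Its folds were 6.17 and 7.29 in SOX2 replicates 1 and 2, at the 17.1 and 37.0 percentiles, and it was number 2117 of 2369 SOX2 regions by fold. Ranked by −log10 q-value (14.30 and 14.63) the same peaks stood at the 52.3 and 49.9 percentiles, so the region is low in the lists by fold and in the middle by q-value. The summits of the 2 libraries were 3 bp apart. SOX2 replicate 2 alone had a peak 2.14 kb beyond the 3′ end (fold 6.36), and peaks 33.5 and 49.1 kb upstream inside the antisense gene Otx2os1 (folds 6.88 and 8.96). These stood at the 23.3, 30.9 and 56.2 percentiles of its list by fold, and at the 35.8, 25.7 and 45.2 percentiles by −log10 q-value. SOX15 replicate 2 had a peak inside Otx2 (chr14:48659799-48660026) with a fold of 4.93, at the 40.8 percentile of its list, and a −log10 q-value of 20.15, at the 70.6 percentile. That summit was 3.23 kb from the SOX2 replicate 1 summit, the peaks did not overlap, and SOX15 replicates 1 and 3 had none in the gene.

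Nes, which encodes the intermediate filament nestin of neural progenitors (mm10 chr3:87971093-87980451), was the neural gene with a SOX2 region. The region lay inside the gene, 3.40 kb downstream of its start in replicate 1 (chr3:87974215-87974720). Its folds were 16.3 and 15.6 in SOX2 replicates 1 and 2, at the 88.4 and 86.6 percentiles, and it was number 348 of 2369. Both libraries thus placed it in the upper part of the list, and no SOX15 library had a peak within 50 kb. A SOX2-dependent neural enhancer is known in an intron of Nes. The gene table used here has no exons, so whether the region covers that enhancer was not tested. The 50 kb window of Nes also holds 6 other protein-coding genes (Mrpl24, Rrnad1, Isg20l2, Crabp2, Bcan and Hapln2), and the peak lies in Nes itself.

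Pax6, a paired-box factor of the eye and forebrain (mm10 chr2:105668896-105698410), had a peak within 50 kb in SOX2 replicate 2 alone. It lay inside the gene, 22.5 kb downstream of the start (chr2:105691164-105691591), with a fold of 8.23 at the 48.8 percentile. A region of both SOX2 libraries lay just outside the limit, 52.3 kb upstream inside the noncoding genes Pax6os1 and Gm35946 (chr2:105616440-105616679). Its folds were 7.48 and 6.26, at the 37.7 and 21.2 percentiles. Just inside the limit was the Otx2 peak at 49.1 kb, so the 50 kb limit falls between peaks a few kb apart in distance.

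**Figure D2:**
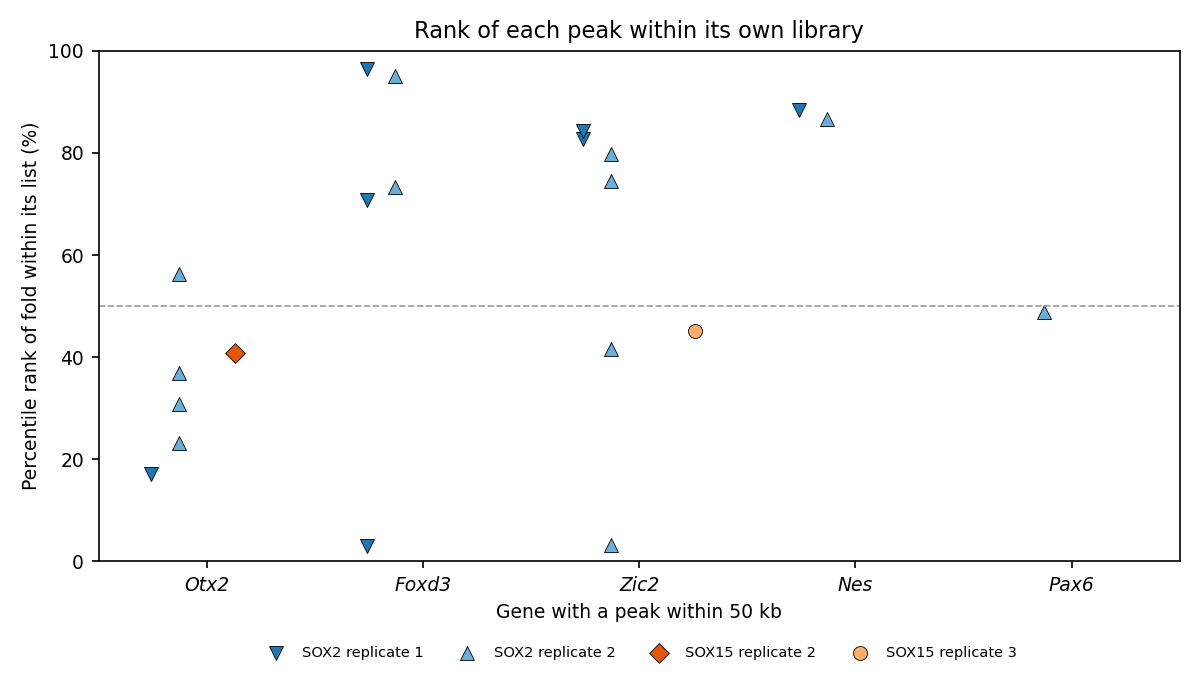
Each symbol is a peak within 50 kb of a gene, placed by the percentile rank of its fold (%) within its own list, with the middle of the list as a dashed line. The strongest Foxd3 and Nes peaks stand at or above the 86.6 percentile in both SOX2 libraries, and the Otx2 peaks reach at most 56.2.

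Hes1, Neurog2, Pou3f1, Pou3f2 and Fgf5 had no peak of the 5 libraries within 50 kb. For Neurog2, a proneural basic helix-loop-helix gene (mm10 chr3:127632733-127635636), a strong SOX2 region lay 87.9 kb away inside Larp7 (chr3:127544401-127545201). Its folds were 20.4 and 37.2 in SOX2 replicates 1 and 2, at the 93.5 and 99.4 percentiles, which made it number 95 of 2369. SOX15 replicate 3 had a peak on it with a fold of 5.75, at the 35.2 percentile. Its nearest protein-coding gene is Larp7, so the list does not tie it to Neurog2. For Hes1, a repressor downstream of Notch (mm10 chr16:30065357-30067796), SOX2 replicate 2 had a peak 92.6 kb away with a fold of 10.4 (68.0 percentile), the one that covers the Gm32796 window printed above.

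Pou3f1, Fgf5 and Pou3f2 had no peak of either factor within 100 kb. Pou3f1 encodes the POU factor OCT6 of the formative state (mm10 chr4:124657646-124660655), and its nearest SOX2 peaks were 675 and 476 kb away in replicates 1 and 2. Fgf5 encodes a growth factor of the formative and primed epiblast (mm10 chr5:98254184-98277033), and its nearest SOX2 peak was 645 kb away in both libraries. Pou3f2 encodes the neural POU factor BRN2 (mm10 chr4:22482095-22488366), with nearest SOX2 peaks at 759 and 163 kb. The lists give no read counts, so signal under the caller's threshold at these genes was not measured.

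Over all 10 genes the nearest SOX2 region was a median of 70.1 kb away, against 354 kb over all protein-coding genes. The median was 16.7 kb for the formative and 87.9 kb for the neural genes. For SOX15 peaks the median distance was 13608, 2459 and 2368 kb in replicates 1, 2 and 3, against 6865, 1214 and 2085 kb over all genes. Within 10 kb, 3 genes had a SOX2 region (Otx2, Zic2 and Nes), against 6.72% of all genes. Widening the limit to 100 kb added Pax6 and Neurog2 and gave 3 of 5 genes in either group, against 22.3% of all genes. The region added for Neurog2 is the one inside Larp7. The formative count was thus larger at 50 kb (3 against 1) but not at 100 kb. It was 2 against 1 within 10 kb. With regions given to the nearest coding gene alone it was also 2 against 1, where 7.31% of all genes had one. With any peak of SOX2 replicate 2 counted in place of regions, Pax6 was added within 50 kb. The neural count was then 2 of 5, against 24.9% of all genes.

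The number of the 10 genes with a peak was 4 and 5 in SOX2 replicates 1 and 2, and 0, 1 and 1 in SOX15 replicates 1, 2 and 3. Both SOX2 libraries stood above the 3 SOX15 libraries. The means were 4.5 ± 0.71 (SD, n = 2) and 0.667 ± 0.577 (SD, n = 3), a difference of 3.83. Over all genes, 15.5% and 24.9% had a peak within 50 kb in the SOX2 libraries, and 2.29%, 5.78% and 4.26% in the SOX15 libraries. The lists differ in length, with 2676 and 4817 SOX2 peaks against 217, 672 and 437 SOX15 peaks. Set against list length the peaks near the 10 genes were 7 of the SOX2 replicate 1 list (0.262%, Wilson 95% interval 0.127 to 0.539) and 12 of the replicate 2 list (0.249%, interval 0.143 to 0.435). They were 0 of the SOX15 replicate 1 list (interval up to 1.74%), 1 of replicate 2 (0.149%, interval 0.0263 to 0.838) and 1 of replicate 3 (0.229%, interval 0.0404 to 1.28). The intervals cover counting error only, and they overlap between the factors. A two-sided exact permutation test over the 5 libraries gave an unadjusted p of 0.1 for the gene count and 0.2 for the share. For the number of peaks near the genes the same test gave 0.1. Adjusted over these 3 comparisons by the Benjamini-Hochberg method, the values were 0.15, 0.2 and 0.15 in that order. With 5 libraries no exact p below 0.1 is possible. The genes were also chosen with earlier results known, so no conclusion is drawn from these p-values.

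**Figure D3:**
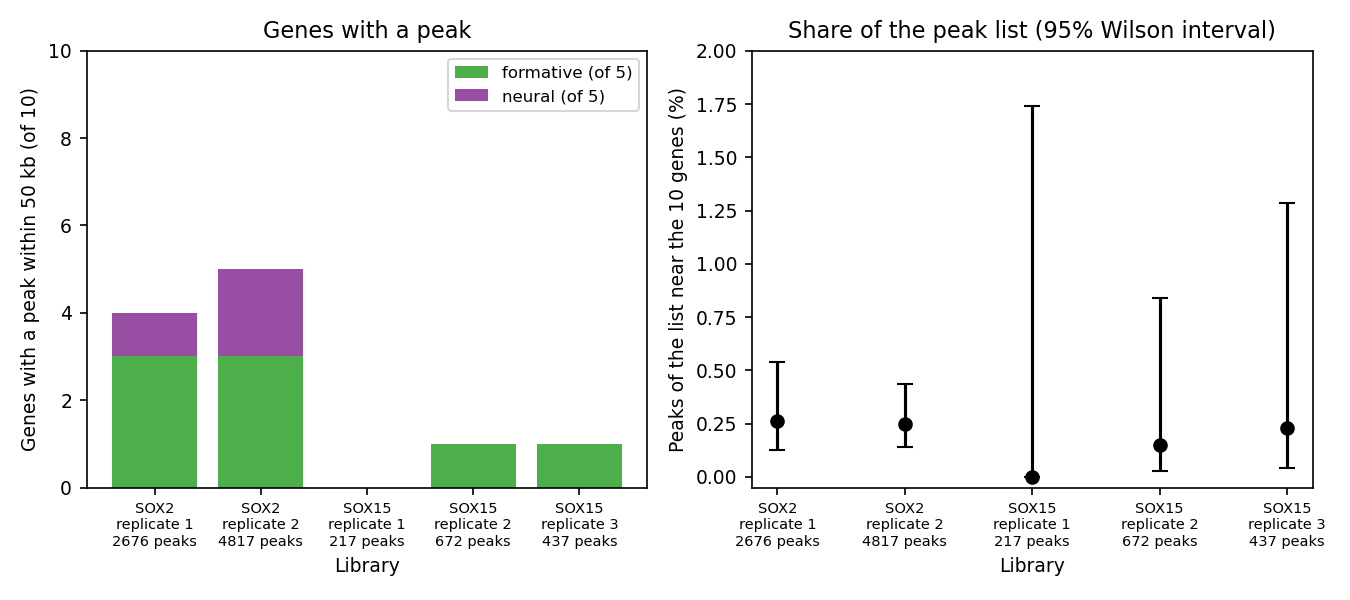
The left panel stacks the formative and neural genes with a peak within 50 kb (of 10) for each library, and the right panel gives the peaks near the 10 genes as a percent of each list, with 95% Wilson intervals. SOX2 libraries reach 4 and 5 genes and SOX15 libraries at most 1, while the intervals of the shares overlap.

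The SOX2 libraries agreed on the set about as often as elsewhere in the lists. Of the 7 replicate 1 peaks near the 10 genes 6 lay in a SOX2 region (85.7%, against 88.8% of the whole list), and of the 12 replicate 2 peaks 6 did (50%, against 49.2%). The 6 regions had a median mean percentile of 80.4 (range 27.0 to 95.8), against 59.7 over all 2369 SOX2 regions, with the Otx2 region at the bottom of that range. Summits of the libraries differed by 3 to 41 bp in the 6 regions (median 19), against a median of 22 bp over 2360 regions with 1 peak per library. Region length was a median of 447 bp, against 409 bp over all.

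Other genes of the same programmes were counted in the same way. Of 18 other formative and early primed genes 9 had a SOX2 region within 50 kb, and of 26 other neural progenitor genes 7 had one, against 14.2% of all protein-coding genes. The first of these lists includes Zic5, whose regions are partly those of Zic2. Its genes are also longer (median 16.5 kb, against 4.24 kb in the neural list), so its windows are wider. The effect of gene length on these counts was not tested. The 6 highest-ranked by mean percentile were Tcf7l1, Sox21, Dll1, Msi1, Etv5 and Fgf15. At Tcf7l1, a repressor of WNT targets, the region inside the gene had folds of 25.9 and 44.0 in SOX2 replicates 1 and 2. Near Sox21, a SOX factor of neural progenitors, the region 2.86 kb from the gene had folds of 25.6 and 33.2 and a SOX15 replicate 3 peak with a fold of 6.06. Near Dll1, a Notch ligand, the region 3.90 kb away had folds of 23.2 and 35.6 and a SOX15 replicate 3 peak with a fold of 4.61. At Etv5, an ETS factor of FGF signalling, folds inside the gene were 13.5 and 17.5. Near Fgf15, a growth factor gene, they were 14.1 and 13.9 at 32.2 kb. Whether another coding gene lies nearer to that region was not determined.

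SOX15 regions lay near 2 of the 26 other neural genes and 0 of the 18 other formative genes, against 2.26% of all genes. Near Msi1, which encodes an RNA-binding protein of neural progenitors, the stronger SOX15 region (chr5:115489173-115490893) lay 33.9 kb from the gene at Sirt4 and within 1 kb of 2 snRNA genes. Its folds were 49.998, 39.0 and 49.1 in SOX15 replicates 1, 2 and 3, and SOX2 replicates 1 and 2 had 31.8 and 17.5 there. The other SOX15 region near Msi1 was nearest to Pla2g1b, with folds of 12.9, 20.4 and 17.4 and a SOX2 replicate 1 fold of 11.1. Near Hes5, a Notch effector, a SOX15 region lay 17.4 kb away and nearer to Tnfrsf14, with folds of 10.9, 9.14 and 7.66 and a SOX2 replicate 1 fold of 9.16. None of these regions had Msi1 or Hes5 as the nearest coding gene.

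**Figure D4:**
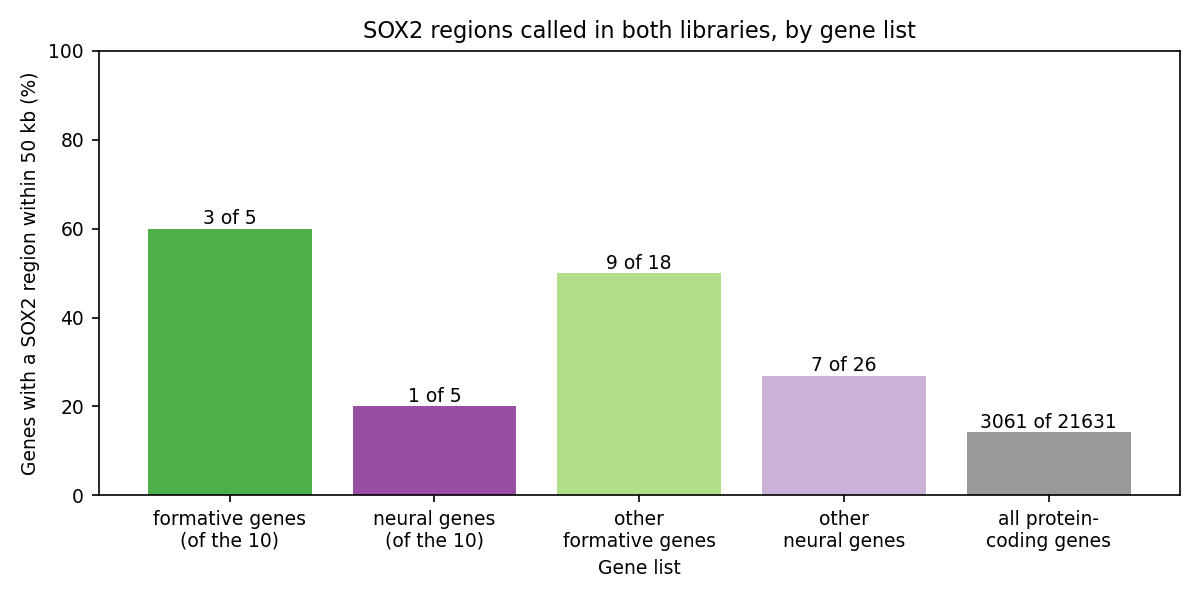
Bars give the percent of genes of each list with a SOX2 region within 50 kb, with the counts above them. The formative genes of the set (3 of 5) and the other formative genes (9 of 18) stand at 60% and 50%, the neural genes at 20% and 26.9%, and all protein-coding genes at 14.2%. The other formative genes are longer (median 16.5 kb) than the other neural genes (4.24 kb).

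Families of the 10 genes were counted in the same way. All 5 Zic genes had a SOX2 region within 50 kb, against 14.2% of all protein-coding genes, but from 6 distinct regions, since Zic2 and Zic5 share regions and so do Zic1 and Zic4. None of the 4 Pou3f genes had a peak of any library, where 26% of all genes had a peak of any SOX2 library. With families of 3 or 4 genes, a count of 0 is near that share. Of the Otx genes Otx2 had a region and Otx1 a peak in SOX2 replicate 2 alone. Of Hes1, Hes3 and Hes5 and of the 3 Neurog genes none had a SOX2 region, while Hes5 and Neurog1 each had a SOX2 peak in at least 1 library. A difference between families was not tested, since these genes are few and neighbours share regions.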

How the data were processed

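Peak lists of 2 SOX2-HA and 3 SOX15-HA ChIP libraries were used, grouped by their titles. The submitters' processing notes name Bowtie2, MACS2, deepTools and the build mm10, with no versions and no roles. How inputs entered peak calling is not given in any source used here. Each deposited list gives, per peak, the authors' fold enrichment (a ratio on a linear scale), −log10 p- and q-values, the summit's offset and a score, in every row the −log10 q-value times 10, rounded down. Lists belong to single samples, and depth is unknown.

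Peaks of 1 factor overlapping by at least 1 bp were joined. Regions needed 2 libraries of their factor, and took the summit of the peak with the highest percentile of fold. Gene positions were RefSeq's for GRCm38.p6, and strands came from the RefSeq start windows, for 7 of the 10 genes. Zic2, Hes1 and Pou3f1 have no strand here. The genes and lists were chosen with earlier results of these data known. All 10 genes were named, with the 6 other list genes of highest mean percentile and every one with a SOX15 region. The planned two-sided exact permutation test of gene counts per library is given with the same test of peak numbers and of shares. Its smallest p is 0.1, and the genes were chosen with results known. The counting was tested on simulated peaks planted near 200 genes, where 50 of 50 planted regions within 50 kb were recovered. These genes lay far from any other, so the check covers the counting code alone and not windows that neighbouring genes share. Alternatives were distances of 10 and 100 kb, the nearest gene, a −log10 q-value of at least 5, an overlap of 50%, any library, and each replicate left out. Scripts ran in Python 3.11.15 with statsmodels 0.14.6, scipy 1.17.1, numpy 2.4.6, matplotlib 3.10.9 and pandas 2.3.3.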

Additional observations from a re-analysis of the deposited data

How the results depend on the processing

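Of 59 recomputed counts and shares 46 stayed within 1.5 times the reported value or kept their sign. The 10 kb limit gave 3 SOX2 regions near the 10 genes, where 50 kb gave 6, and 6.72% of all genes. The 100 kb limit gave 11 regions, 3 neural genes with one and 22.3% of all genes, and the nearest gene alone gave 7.31% of all genes. A peak in any 1 library gave 2 genes with a SOX15 region, 2 neural genes with a SOX2 region, 13 SOX2 regions and 26.0% of all genes. With either SOX2 replicate left out, a region was any peak of the other library, so the rule of both libraries was dropped. This gave 1 to 2 neural genes, 7 to 12 such regions and 15.5% to 24.9% of all genes, the larger values without replicate 1. The difference of 3.83 genes between the factors ranged from 3.17 to 5.5 under the other limits, assignments and thresholds, and from 3.33 to 4.33 without single replicates. With the replicate number as a block it was 4.0, with no test, and the labels give only a shared number. Of 15 recomputed percentiles of the strongest SOX2 peaks of Otx2, Foxd3, Zic2 and Nes 13 stayed within the spread (1 SD) of the 2 libraries, which was wide for Otx2 (27.7). The exceptions were Zic2 within 100 kb (82.0 to 90.1) and Nes ranked by −log10 q-value (87.5 to 89.6). The Otx2 percentile of 36.6 became 27.0 within 10 kb, 51.1 by −log10 q-value and 59.0 within 100 kb, all inside its wide spread. That spread compared different Otx2 peaks, at 17.1 in replicate 1 and 56.2 in replicate 2, so it is no measure of stability. Pax6 has a peak in 1 library and so no spread, and its percentile of 48.8 became 43.3 to 47.4 in 3 of 4 alternatives and did not move within 10 kb. Peaks under the caller's threshold are not listed, which limits every statement on a gene without a peak.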
